A study of Mus musculus with 6 samples.

Results

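The glutathione and NRF2 response genes were a list of 31 genes, chosen by name and not by their values, that encode the enzymes making, recycling and using glutathione together with regulators and antioxidant targets of the factor NRF2. Of these, 26 had a probe set that paired with that gene alone, out of 22180 genes with such a probe set, and where a gene had several the brightest over the 6 arrays was used. Tkt, Gstm5, Prdx1 and Ftl1 were covered only by probe sets shared with other genes, and G6pdx was not analysed here. In MG and in PBS alike, the mean of each of the 26 genes exceeded a reference level of 5.02 on the log2 scale. So did both group means of 13704 of all 22180 genes, and no filter on low values was applied. This level is the 95th percentile over 1390 genes of olfactory and vomeronasal receptors, which are expressed mainly in sensory neurons of the nose, and it was set with the data in view.

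RNA was measured on Affymetrix Mouse Gene 2.0 ST arrays in neurospheres, floating colonies that dividing stem and progenitor cells of the subventricular zone form in culture, from 2-month-old CD1 mice, an outbred stock. The MG group held cultures from 3 offspring of mothers injected into the peritoneum with 0.5 mg/kg MG, taken to be methylglyoxal because the series title names that compound. The PBS group held cultures from 3 offspring of mothers injected with PBS, and in both groups the mothers received 2 injections a day from gestational day 12 until birth. All cultures grew for 7 days in serum-free medium with 20 ng/ml EGF, 10 ng/ml FGF2, heparin and B27, a supplement whose standard form itself contains antioxidants, and the labels do not say which form was used. The labels give neither the sex of the offspring nor whether animals of a group shared a mother, so p-values measure the spread between these 3 cultures per group and a litter effect cannot be told apart from the injections. The titles call the cultures primary neurospheres and the descriptions call them secondary.

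The markers fixed for neural stem and progenitor cells, among them Nes, Sox2 and Vim, were above the reference level in 11 of 11 genes. Their means per array ran from 10.90 to 10.98 in MG and from 10.83 to 10.91 in PBS. Also above it were 10 of 10 astrocyte, 9 of 9 oligodendrocyte lineage and 10 of 10 neuroblast and neuron markers. Being above this level therefore does not tell these cell types apart. Of 10 microglia and macrophage markers, 4 were above the reference level. Their means over the 6 arrays were 7.29 for Cd68, 5.89 for Cx3cr1, 5.62 for C1qa and 5.33 for P2ry12. Ptprc, Aif1, Itgam, Tmem119 and C1qb were below it in both groups, and Csf1r was below it in MG. MG replicate 3 and PBS replicate 3 stood apart from the other 4 cultures. The mean of 18 replication and S phase genes, after centring each gene on its mean over the 6 arrays, was -0.11, -0.25 and 0.46 in MG replicates 1, 2 and 3 and -0.41, -0.12 and 0.44 in PBS replicates 1, 2 and 3. The mean of 12 glycolysis and lactate genes was 0.30, 0.00 and -0.51 in MG, against 0.45, 0.14 and -0.38 in PBS. Results that lean on the replicate 3 cultures are therefore given with and without them.

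Glutathione is a tripeptide of glutamate, cysteine and glycine that buffers the redox state of the cell, and its adduct with methylglyoxal is the substrate of glyoxalase 1. NRF2 is a transcription factor that KEAP1 holds in the cytoplasm and marks for degradation. When electrophiles or oxidants modify KEAP1, NRF2 accumulates, pairs with small MAF proteins and binds antioxidant response elements near genes of glutathione synthesis, NADPH supply and detoxification. Neural stem cells are known to depend on a controlled redox state, and the comparison of MG with PBS offspring asks whether the expression of this defence differed in adult offspring cells after prenatal exposure.

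The core of the antioxidant response element, TGACNNNGC, was searched on both strands of RefSeq promoter windows (GRCm38.p6), which run from 250 bases before to 50 bases after a transcript start. Windows were given for 21 of the 26 genes, 29 in all, and 6 windows held a match (20.7%), against 12.4% of all 32851 windows. The genes with a match were Nfe2l2, Srxn1, Gclm, Me1, Txnrd1 and Sod1. Windows of 3 of them are shown because these genes spanned the range of behaviour between cultures described below, with the match in capitals. The window of Me1 is chr9:86695865-86696164, minus strand, and its match begins 6 bases before the start. The window of Gclm is chr3:122245307-122245606, plus strand, and that of Txnrd1 is chr10:82858956-82859255, plus strand; both hold the match on the opposite strand.
Me1: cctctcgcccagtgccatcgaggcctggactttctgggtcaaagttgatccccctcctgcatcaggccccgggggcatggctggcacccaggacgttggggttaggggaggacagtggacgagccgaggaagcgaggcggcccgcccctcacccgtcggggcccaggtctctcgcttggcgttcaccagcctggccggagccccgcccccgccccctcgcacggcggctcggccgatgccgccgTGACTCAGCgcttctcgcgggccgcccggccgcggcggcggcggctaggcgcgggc
Gclm: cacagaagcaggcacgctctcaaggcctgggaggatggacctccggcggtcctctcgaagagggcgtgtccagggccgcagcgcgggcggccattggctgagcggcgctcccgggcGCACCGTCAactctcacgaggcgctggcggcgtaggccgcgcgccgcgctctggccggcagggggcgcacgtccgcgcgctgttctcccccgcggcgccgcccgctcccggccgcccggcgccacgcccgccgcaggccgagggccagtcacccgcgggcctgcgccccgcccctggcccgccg
Txnrd1: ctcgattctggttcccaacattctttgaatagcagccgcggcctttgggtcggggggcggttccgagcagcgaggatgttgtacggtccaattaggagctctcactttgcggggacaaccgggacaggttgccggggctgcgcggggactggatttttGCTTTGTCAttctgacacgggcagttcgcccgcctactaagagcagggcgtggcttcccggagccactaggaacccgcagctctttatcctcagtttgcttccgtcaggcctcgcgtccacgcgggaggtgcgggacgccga

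Expression of the glutathione and NRF2 response genes differed little between MG and PBS cultures. In limma, with Benjamini-Hochberg adjustment over 22180 genes, none of the 26 passed (adjusted p = 0.9998 for each), and 0% of all genes did. None of the 26 had an unadjusted p under 0.05, against 3.21% of all genes and 1.6% of those above the reference level, and the smallest was 0.2245, of Keap1. In none of the 26 did the 3 MG values lie wholly above or below the 3 PBS values, against 7.34% of all genes and 5.47% of those above the reference level. The smallest exact two-sided permutation p was 0.2, where 3 against 3 allows no less than 0.1. Means were higher in MG in 17 of 26 genes (65.4%), against 53.8% of all genes and 56.9% of those above the reference level, and the median log2 difference was 0.03, against 0.01 over all genes and 0.02 over those above the reference level. That count was 10 of 26 without PBS replicate 3 and 12 of 26 without both replicate 3 cultures, where the median log2 difference was -0.05 and -0.01. With 1 probe set per gene, the largest log2 difference was 0.17 and the lowest -0.12.

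The intervals bound the size of any difference at the 1 probe set used per gene. The 95% confidence interval of limma's log2 difference reached a median of 0.31 to either side, and for 24 of the 26 genes it lay wholly within 1.5-fold in either direction. Me1 and Gstp1 were the others, with upper bounds of 1.62-fold and 1.52-fold. The interval also lay within 1.5-fold for 16513 of all 22180 genes and for 10864 of the 13704 above the reference level. With 1 probe set per gene, no interval of the 26 reached 2-fold. Nor did those of 21576 of all genes and 13389 of those above the reference level. These bounds do not cover a second, dimmer probe set of Slc7a11, which had a log2 difference of 0.55 (standard error 0.26). These intervals cover the spread among 3 cultures per group, and the labels do not say whether that spread includes differences between litters.

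**Figure D1:**
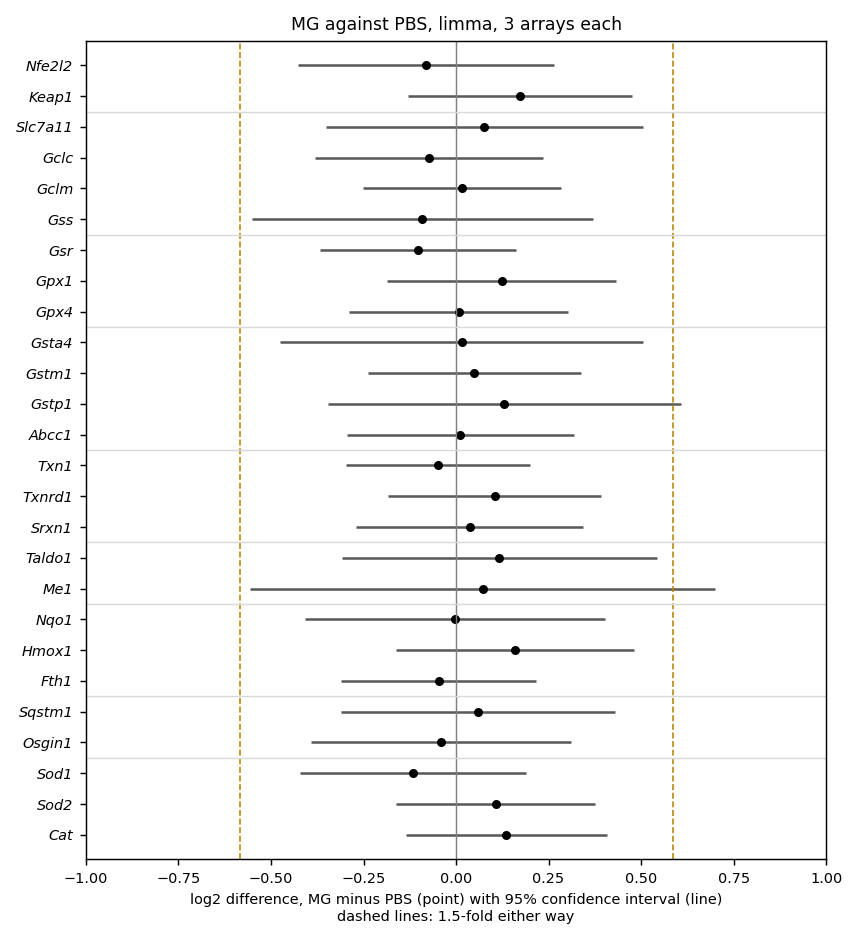
Log2 difference between MG and PBS for each of the 26 genes (point) with its 95% confidence interval from limma (line), ordered by role, with 1.5-fold marked by dashed lines. Every interval spans 0, and those of Me1 and Gstp1 alone cross a dashed line.

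The 2 regulators overlapped between groups. Nfe2l2, which encodes NRF2, had values of 9.90, 9.93 and 9.99 in MG replicates 1, 2 and 3, against 10.25, 10.08 and 9.74 in PBS replicates 1, 2 and 3. The MG values lay inside the PBS range only through PBS replicate 3, and the log2 difference was -0.08 (95% interval -0.43 to 0.26). It was -0.22 (standard error 0.13) without PBS replicate 3 and -0.25 (standard error 0.13) without both replicate 3 cultures. In the latter fit both MG values lay below both PBS values. Without PBS replicate 1 the log2 difference was 0.03 (standard error 0.16), so its sign depended on the cultures used. Keap1, its inhibitor, had values of 7.99, 7.71 and 7.94 in MG, against 7.66, 7.85 and 7.62 in PBS. Its log2 difference of 0.17 (standard error 0.13, exact permutation p = 0.2) was the largest of the 26 with 1 probe set per gene, and PBS replicate 2 lay above MG replicate 2. A second probe set of Keap1 went the other way, at 5.99, 6.34 and 5.91 in MG and 6.51, 6.30 and 5.89 in PBS, a log2 difference of -0.15 (standard error 0.20), so the array gives no settled direction for Keap1. With its probe sets averaged, the log2 difference was 0.011.

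Cystine import and glutathione synthesis gave 2 genes with higher and 2 with lower means in MG. Slc7a11, the cystine antiporter that supplies cysteine, had values of 8.50, 8.35 and 8.06 in MG and 8.22, 8.54 and 7.93 in PBS. Its log2 difference was 0.08 with all arrays and -0.02 without MG replicate 1. A second, dimmer probe set of Slc7a11, below the reference level in both group means, had values of 5.09, 4.53 and 4.54 in MG and 4.31, 4.50 and 3.68 in PBS, a log2 difference of 0.55 (standard error 0.26, unadjusted p = 0.07399 in limma over all probe sets). With both probe sets averaged the log2 difference was 0.32, so the size of the difference depends on the probe set. Gclc, the catalytic subunit of the rate-limiting ligase, lay between 9.15 and 9.30 in MG and between 9.07 and 9.43 in PBS. Gclm, the modifier subunit of that ligase and a standard NRF2 target, covered nearly the same range in both groups. Its values were 9.83, 9.87 and 10.01 in MG and 9.83, 9.86 and 9.98 in PBS. Its log2 difference was 0.02 with an interval from -0.25 to 0.28, which bounds a rise at 1.22-fold and a fall at 1.19-fold. Gss, glutathione synthetase, which adds glycine, had values of 7.44, 7.10 and 6.92 in MG and 7.32, 7.52 and 6.89 in PBS, a log2 difference of -0.09 (95% interval -0.55 to 0.37). Both replicate 3 cultures were the lowest for Slc7a11 and Gss and the highest for Gclm.

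Recycling and peroxide reduction through glutathione gave differences between -0.10 and 0.12. Gsr, the reductase that regenerates glutathione from its disulfide, lay between 10.24 and 10.40 in MG and between 10.35 and 10.49 in PBS. Gpx1, the cytosolic glutathione peroxidase, had values of 9.85, 9.63 and 9.75 in MG, against 9.50, 9.82 and 9.54 in PBS, and the groups overlapped through PBS replicate 2. Gpx4, which reduces lipid peroxides and guards against ferroptosis, had equal means of 7.72 ± 0.15 in MG and 7.72 ± 0.10 in PBS (SD, n = 3 each).

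Gsta4, Gstp1, Gstm1 and Abcc1 all differed more between cultures of 1 group than between the group means, and Gsta4 and Gstp1 varied most among them. Gsta4, an alpha-class transferase that conjugates the lipid aldehyde 4-hydroxynonenal, had values of 10.67, 10.61 and 10.19 in MG and 10.61, 10.75 and 10.05 in PBS. Its group means were 10.49 ± 0.26 in MG and 10.47 ± 0.37 in PBS (SD, n = 3 each), and the replicate 3 cultures of both groups were the lowest. Gstp1, the pi-class transferase, had values of 11.30, 11.42 and 11.79 in MG and 11.41, 11.00 and 11.70 in PBS, with the replicate 3 cultures the highest. Gstp1 is nearly identical to its neighbour Gstp2, so the signal of its probe set may include both. Gstm1, of the mu class, whose members also resemble each other closely, lay between 7.53 and 7.84 in MG and between 7.62 and 7.68 in PBS. Abcc1, the pump that exports glutathione conjugates, lay between 7.61 and 7.66 in MG and between 7.51 and 7.85 in PBS.

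The thioredoxin branch, which reduces protein disulfides in parallel to glutathione, varied little. Txn1, thioredoxin, ranged from 10.49 to 10.54 in MG and from 10.51 to 10.62 in PBS. Its SD over the 6 arrays was 0.05, smaller than in all but 1.52% of the genes above the reference level. Txnrd1, the selenoprotein that reduces it, had means of 10.54 ± 0.14 in MG and 10.44 ± 0.09 in PBS, and Srxn1, sulfiredoxin, which repairs overoxidised peroxiredoxins, had 7.36 ± 0.06 in MG and 7.32 ± 0.19 in PBS (SD, n = 3 each).

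NADPH supply held the most variable gene of the list. Me1, malic enzyme, which makes NADPH from malate in the cytosol, had values of 11.13, 11.03 and 10.31 in MG and 11.10, 10.87 and 10.28 in PBS. The replicate 3 cultures were 0.77 and 0.71 (log2) below the mean of the other 2 cultures of their own groups, in MG and PBS, while the group means differed by 0.07 (95% interval -0.56 to 0.70). The sign of that difference turned with the cultures used, at 0.33 without MG replicate 3 and -0.17 without PBS replicate 3, and it was 0.09 without both. Taldo1, transaldolase of the pentose phosphate pathway, had values of 8.97, 8.68 and 8.65 in MG and 8.63, 8.98 and 8.33 in PBS, a log2 difference of 0.12 that was -0.04 without PBS replicate 3.

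Among the inducible genes used as readouts of NRF2, group means with all arrays were the same or close. Nqo1, the quinone reductase often used as a marker of NRF2 activity, had values of 6.44, 6.25 and 6.85 in MG and 6.34, 6.63 and 6.58 in PBS. Its means were 6.51 ± 0.31 in MG and 6.51 ± 0.16 in PBS (SD, n = 3 each), and the interval of the difference ran from -0.41 to 0.40. MG replicate 3 was the highest of the 6 arrays. The log2 difference was -0.17 (standard error 0.15) without MG replicate 3 and -0.14 (standard error 0.16) without both replicate 3 cultures. It was -0.09 without PBS replicate 1. Without MG replicate 1 or 2 it was 0.03 or 0.13, and without PBS replicate 2 or 3 it was 0.05 or 0.03. Its sign thus depended on the cultures used. Hmox1, haem oxygenase 1, had values of 9.16, 9.14 and 9.43 in MG and 9.07, 9.25 and 8.93 in PBS. Its log2 difference of 0.16 (standard error 0.14) rested on the replicate 3 cultures, the highest in MG and the lowest in PBS, and was -0.01 without both. Fth1, ferritin heavy chain, which stores iron released from haem, lay between 12.42 and 12.50 in MG and between 12.43 and 12.63 in PBS. Sqstm1, the autophagy adaptor p62 that competes with NRF2 for KEAP1, had means of 10.14 ± 0.18 in MG and 10.08 ± 0.24 in PBS, and Osgin1, a growth inhibitor induced by oxidative stress, had 5.80 ± 0.25 in MG and 5.84 ± 0.10 in PBS (SD, n = 3 each).

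The enzymes that remove superoxide and hydrogen peroxide overlapped between groups. Cat, catalase, had values of 11.57, 11.74 and 11.65 in MG and 11.63, 11.50 and 11.42 in PBS. Its log2 difference was 0.14 (standard error 0.12, exact permutation p = 0.2), and PBS replicate 1 lay within the MG range. Sod1, the cytosolic superoxide dismutase, had values of 10.80, 10.55 and 10.62 in MG and 10.73, 10.94 and 10.66 in PBS, a log2 difference of -0.12 (standard error 0.13). Sod2, its mitochondrial counterpart, had values of 10.72, 10.53 and 10.63 in MG and 10.58, 10.56 and 10.43 in PBS, a log2 difference of 0.11 (standard error 0.12).

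**Figure D2:**
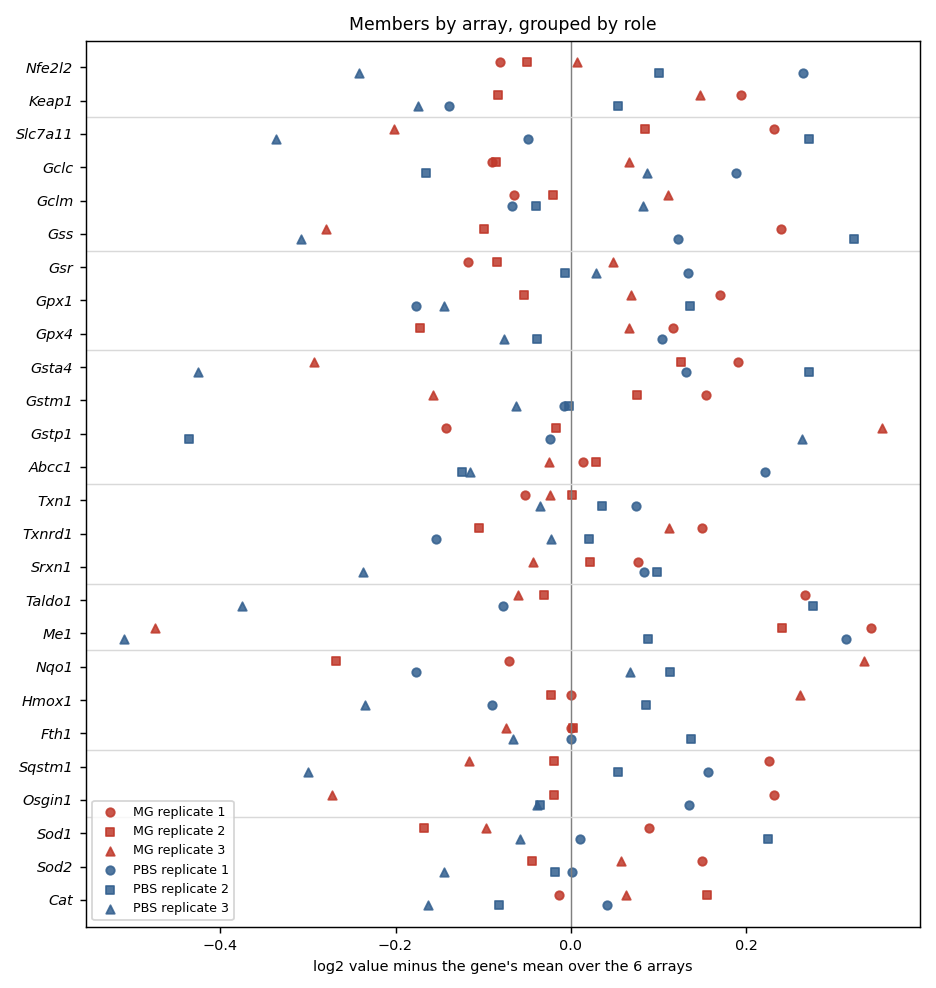
Log2 value of each of the 26 genes on each array minus that gene's mean over the 6 arrays, with MG in red, PBS in blue and the replicate number shown by the marker shape. The colours overlap in every row, and in Me1 and Gsta4 the triangles of both replicate 3 cultures sit to the left of the other 4 points.

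The larger pattern lay between cultures of the same group. Both replicate 3 cultures were below the other 4 for 9 of the 26 genes, against 15.7% of all genes and 18.8% of those above the reference level. These were Slc7a11, Gss, Gsta4, Gstm1, Srxn1, Me1, Fth1, Sqstm1 and, by a narrow margin, Osgin1. Both were above the other 4 for Gclm and Gstp1 only, 2 of 26, against 15.7% of all genes and 22.5% of those above the reference level. The SD over the 6 arrays was 0.39 for Me1, 0.29 for Gsta4 and Gstp1 and 0.27 for Gss, and for 17 of the 26 genes it lay in the lower part of the range, at or below the 50th percentile among genes above the reference level. The replicate 3 cultures were taken as a set because they stood apart in these data, so these counts are a description and carry no test. Without both of them the log2 difference between MG and PBS was 0.09 for Me1, -0.043 for Gsta4, -0.15 for Gss, 0.05 for Slc7a11 and 0.15 for Gstp1.

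**Figure D3:**
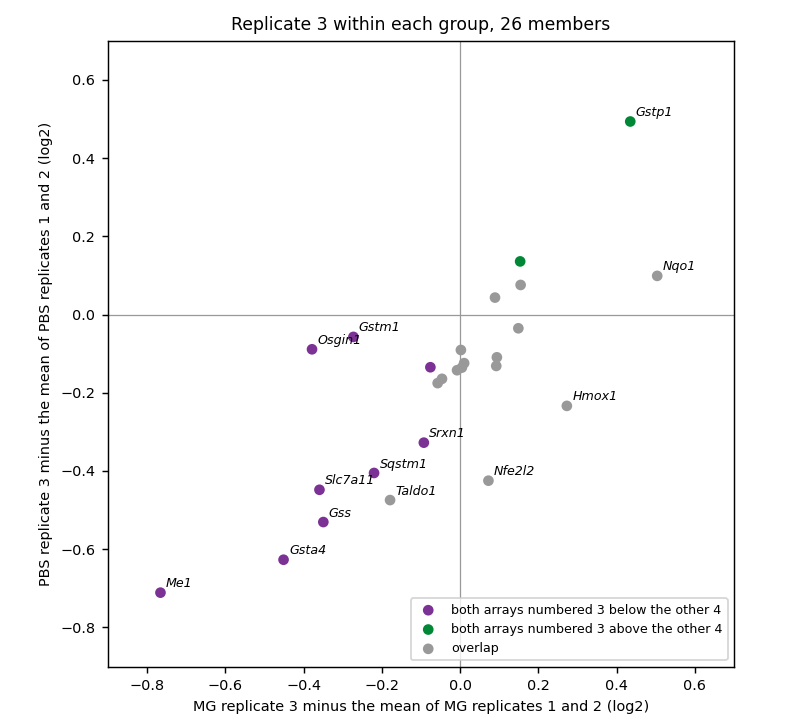
Replicate 3 minus the mean of replicates 1 and 2 of the same group (log2) for the 26 genes, MG on the horizontal and PBS on the vertical axis, with genes labelled where either value exceeds 0.2 in size. Me1, Gsta4, Gss and Slc7a11 lie at the lower left and Gstp1 at the upper right, while Hmox1 and Nfe2l2 lie right of 0 and below 0.

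Within each group, replicate 3 departed from the other 2 cultures in the same direction for 18 of 26 genes (69.2%), close to the 69.8% of all genes above the reference level. The direction was downward in both groups for 13 genes (50%, against 34.4% of genes above the reference level) and upward in both for 5 (19.2%, against 35.4%). PBS replicate 3 was the lowest of the 6 arrays for 12 of the 26 genes (46.2%) and the highest for 0, whereas it was the lowest for 24.6% and the highest for 13.9% of genes above the reference level. MG replicate 1 was the highest for 9 genes (34.6%, against 21.5%). Markers of other cell states moved with these cultures. Both replicate 3 cultures were below the other 4 for 10 of 12 glycolysis and lactate genes and 8 of 10 astrocyte markers, and above them for 18 of 18 replication and S phase genes. The mean of the 10 centred astrocyte markers, all above the reference level, ran from -0.40 to 0.34 in MG and from -0.36 to 0.18 in PBS. The part of these differences in the values of Me1, Gsta4, Gss and Slc7a11 was not tested, and in bulk RNA fewer cells of a type and less RNA per cell cannot be told apart.

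**Figure D4:**
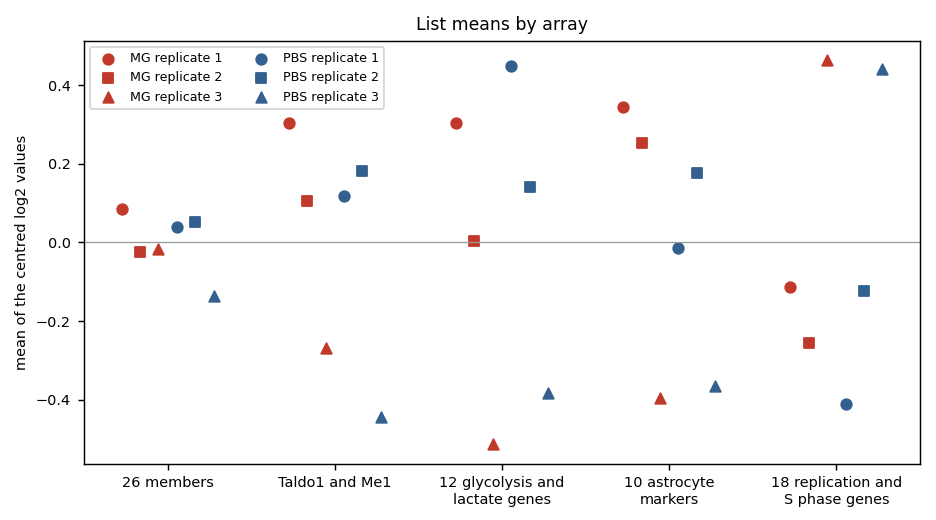
Mean of the centred log2 values of each gene list on each array, with MG in red left of PBS in blue and the replicate number shown by the marker shape. The 26 genes spread from -0.14 to 0.08, whereas the triangles of replicate 3 are the lowest for Taldo1 and Me1, glycolysis and lactate, and astrocyte markers, and the highest for replication and S phase genes.

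Of the other genes of glutathione metabolism and the NRF2 pathway, 92 of 99 listed had a probe set of their own, and for 75 both group means exceeded the reference level. None passed after adjustment (limma, adjusted p = 0.9998 for each). At an unadjusted p under 0.05 there were 4 of 92, against 3.21% of all genes, with 3 higher and 1 lower in MG, and the groups did not overlap in 8, against 7.34%. Means were higher in MG in 55 and lower in 37, with a median log2 difference of 0.01. Of the 4, Blvra and Cth were above the reference level, while Gstm2 was below it in both groups and Nfe2l3 in MG. Blvra, biliverdin reductase A, which turns the biliverdin made by haem oxygenase into bilirubin, had values of 7.25, 7.17 and 7.38 in MG and 6.76, 6.90 and 6.97 in PBS. Its log2 difference was 0.39 (standard error 0.12, unadjusted p = 0.01198 in limma), and between 0.33 and 0.44 with any array left out. Cth, cystathionine gamma-lyase, which makes cysteine by transsulfuration, had values of 6.46, 6.57 and 6.50 in MG and 6.11, 6.16 and 6.38 in PBS, a log2 difference of 0.29 (standard error 0.12, unadjusted p = 0.04509 in limma).

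The widest differences among the 75 were those of Gstt1 and Gstt3, theta-class transferases, and they came from PBS replicate 3. Gstt1 had values of 9.53, 9.91 and 9.70 in MG and 9.71, 9.93 and 8.12 in PBS, and Gstt3 had 6.48, 6.73 and 6.64 in MG and 6.42, 6.78 and 5.31 in PBS. Their log2 differences of 0.46 and 0.45 were -0.11 and 0.01 without PBS replicate 3. In the other direction, Chac1, which degrades glutathione and is induced by ATF4, had a log2 difference of -0.27 (standard error 0.21). Cbr1, a carbonyl reductase, had one of -0.21 (0.12), with all 3 MG values below the PBS values, and Ephx1, microsomal epoxide hydrolase, one of -0.19 (0.16).

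The enzymes that use glutathione to clear methylglyoxal overlap with this system. Glo1 had values of 10.39, 10.50 and 9.51 in MG and 10.51, 10.50 and 10.59 in PBS. The 3 MG values lay below the 3 PBS values, MG replicate 2 by a margin not visible at 2 decimals, and the log2 difference of -0.40 (standard error 0.25) was -0.09 without MG replicate 3. In MG replicate 3, where Glo1 was lowest, Nqo1, Hmox1, Gclm and Gstp1 were at their highest of the 6 arrays, while Gstm1, Fth1 and Osgin1 were at their lowest. MG replicate 3 was the highest array for 4 of the 26 genes (15.4%), against 30.6% of genes above the reference level. Hagh, glyoxalase 2, which releases glutathione again, had means of 7.26 ± 0.14 in MG and 7.36 ± 0.10 in PBS (SD, n = 3 each).

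The log2 differences of the genes with the TGACNNNGC match named above and of those without it lay in similar ranges. No gene of the 26 had an unadjusted p under 0.05 in limma, so the split could not show whether a match matters. The log2 differences of the 6 genes with a match ran from -0.12 to 0.10, with a median of 0.03 and higher means in MG in 4, against a range from -0.09 to 0.17, a median of 0.06 and higher means in 10 of the 15 genes whose windows held none. Me1 and Srxn1 among the 6, and 6 of the 15, were lowest in both replicate 3 cultures. A match is only a run of letters, and its absence from these windows does not bear on sites elsewhere.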

How the data were processed

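The deposited values, 1 per probe set and array, were taken as log2 from their range (0.73 to 13.81). Per the submitters' processing notes the authors used Partek 6.6; their background correction, normalisation and genome build are not stated in the sources used. Array medians lay between 5.25 and 5.42, and arrays correlated at 0.966 to 0.989.

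Probe sets were named through the platform annotation, with symbols updated through RefSeq (GRCm38.p6): of 41345, 23521 named 1 gene, 1814 several and 16010 were unnamed here. MG was set against PBS with limma 3.58.1 (R 4.3.3), a linear model with empirical Bayes moderation and no covariate, two-sided, over 22180 genes with Benjamini-Hochberg adjustment, and the steps were tested on simulated data. The number of arrays limits the precision.

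Every gene of the list was counted. Values per array were given where the unadjusted p was under 0.05, the groups did not overlap, or the gene was among the 8 largest differences or 6 largest SDs; Nfe2l2, Gclm and Nqo1 were added after their values were seen. Of the other pathway genes, those with p under 0.05 and the 3 largest differences per direction above the reference level were named. The genes, lists and alternatives were chosen with earlier results of these data known. Alternatives covered dim genes, probe set choice, normalisation, moderation, array weights, replicate numbers as a block, and arrays left out.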

Additional observations from a re-analysis of the deposited data

How the results depend on the processing

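Under all 16 alternatives, no gene of the 26 and none of all genes tested passed the adjusted threshold, and none of the 26 had an unadjusted p under 0.05. The count of the 26 with higher means in MG was 17, between 10 and 19 with 1 array left out (10 without PBS replicate 3), 12 without both replicate 3 cultures, 12 with array weights, 15 with quantile normalisation and 19 with median centring. The median log2 difference ran from -0.045 to 0.068 with 1 array left out. With the replicate block it was 0.027 and the count 17, as without it, because a block balanced over both groups cannot move the estimates. Same-numbered cultures did not deviate together in every pair (correlations over 22180 genes of 0.22, 0.04 and 0.45), so they were not treated as paired.

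Of 192 values of the 12 genes chosen for size of difference or SD, 176 kept their direction and 16 turned sign. The 176 include values that could not turn. Leaving out dim genes, fitting all probe sets, changing the moderation and adding the replicate block leave the estimate itself unchanged. Averaging probe sets changed only Slc7a11 and Keap1. All 16 turns came with array weights or with arrays left out. With 1 array left out, the log2 difference ran from -0.073 to 0.231 for Slc7a11, from -0.269 to 0.047 for Gss, from -0.193 to 0.166 for Gsta4, from -0.055 to 0.295 for Gstp1, from -0.041 to 0.285 for Taldo1 and from -0.165 to 0.327 for Me1. With array weights Gsta4 was -0.013, and without both replicate 3 cultures Gsta4 was -0.043 and Hmox1 -0.0095. Averaging a gene's probe sets gave 0.316 for Slc7a11, against 0.0765 with its brightest probe set, and 0.011 for Keap1, against 0.172. Nfe2l2, not among the 12, was -0.22 without PBS replicate 3 and 0.03 without PBS replicate 1. The cause of these changes was not tested. Over all 26 genes and the 7 fits with arrays left out, 18 genes turned sign at least once, and Keap1, Gsr, Gpx1, Txn1, Txnrd1, Sod1, Sod2 and Cat kept theirs.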

Other observations

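Gstt1 and Gstt3 lie next to each other on chromosome 10 in the RefSeq table, and both were lowest in PBS replicate 3, with Gstt1 at 8.12 against 9.53 to 9.93 on the other 5 arrays and Gstt3 at 5.31 against 6.42 to 6.78. Gstt2, close by on the same chromosome, had 3.89 in PBS replicate 3 and 2.98 to 3.77 on the other arrays, below the reference level throughout. MG replicate 3, the other culture that stood apart in replication and glycolysis genes, had 9.70 for Gstt1 and 6.64 for Gstt3.

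Further genes of the pathway list were lowest in both replicate 3 cultures. Gpx8, a glutathione peroxidase of the endoplasmic reticulum, had values of 10.53, 10.54 and 9.93 in MG and 10.48, 10.58 and 9.86 in PBS. Sesn3, a sestrin, had 10.92, 10.89 and 10.36 in MG and 10.92, 10.95 and 10.33 in PBS. Idh1, the cytosolic isocitrate dehydrogenase that makes NADPH, had 11.63, 11.73 and 11.15 in MG and 11.77, 11.70 and 11.28 in PBS, and Pgd, of the pentose phosphate pathway, had 10.58, 10.22 and 10.04 in MG and 10.52, 10.51 and 9.85 in PBS. These 4 were chosen after their values were seen. In the pathway list, 19 of 92 genes were lowest in both replicate 3 cultures and 11 highest, against 15.7% of all genes for each.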
